A study of Mus musculus with 6 samples.

Results

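The integrin and laminin genes of the developing maxillary prominence, the paired facial process that builds the upper jaw and the secondary palate, were followed between WT embryos and embryos with Dlx2 overexpression in the neural crest. The set was chosen by symbol and not by expression: protein-coding genes named Itga with a number, Itgav or Itgae, Itgb with a number, and Lama, Lamb or Lamc with a number, less a few genes of these families that were set aside, which left 30 of the 53801 genes counted. They comprised 13 integrin alpha, 7 integrin beta, 5 laminin alpha, 3 laminin beta and 2 laminin gamma genes, and all 30 were among the 17514 genes with enough reads for testing. The leukocyte alpha chains with other letters fall outside the rule.

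Bulk poly-A RNA-seq was carried out on maxillary prominences dissected at embryonic day 12.5 on a C57BL/6J background (C57BL/6 in the strain field of the labels), with 3 RNA samples per genotype. The WT samples were wild type and carried neither transgene. The other 3 samples had the genotype Wnt1cre; Rosa26Dlx2/-, called Dlx2OE here: 1 Rosa26 allele held a Flag-tagged Dlx2 behind a CAG promoter and a loxP-flanked stop, and Wnt1-driven Cre, which acts in the neural crest and its descendants, removed the stop. Wild-type embryos are not a control for Cre itself. The dissected process also holds cells that do not descend from the crest, such as oral epithelium, endothelium and skeletal muscle cells. The RNA came from littermates, whose number differs between the labels and the methods. Neither says whether a sample was 1 embryo or a pool.

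Laminins are large cross-shaped proteins of the basement membrane, the sheet under epithelia and around vessels, nerves and muscle. Each is a trimer of 1 alpha, 1 beta and 1 gamma chain. The alpha chain carries the main binding sites for cell receptors, and the short arms of the trimers link into a network to which nidogens and type IV collagen attach. Integrins are receptors of 1 alpha and 1 beta subunit that tie the cytoskeleton to such ligands. The alpha subunit largely sets which ligand is bound, and Itgb1 is the shared partner of most alpha subunits. In facial development these molecules separate the oral epithelium from the crest-derived mesenchyme and guide nerves and vessels.

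Between 26155500 and 31308813 read pairs fell on genes in each sample. A count of 3 was worth 0.0955 to 0.111 CPM (reads scaled to library size, with trimmed mean of M values), and the lowest count of any member in any sample was 19. Dlx2 itself stood at 42.9, 35.0 and 45.2 CPM in WT and 119, 131 and 123 CPM in Dlx2OE, 3.03-fold higher, so the labels fitted the targeted gene. The mesenchymal genes Prrx1 and Pdgfra were present in all 6 samples at 290 CPM or more, as the tissue label implies. Dlx2OE replicate 3 stood apart in that 15.41% of its uniquely mapped read pairs lay outside annotated genes, against 5.34 to 8.21% in the other 5 samples. In Pearson correlation of log2 CPM over the genes tested, Dlx2OE replicates 2 and 3 gave 0.9873. Dlx2OE replicate 1 gave 0.974 and 0.9644 with these, and 0.9634, 0.9645 and 0.9723 with WT replicates 1, 2 and 3. Among marker genes, 2 of 8 erythroid and 1 of 9 tested pericyte and smooth muscle genes fell at an edgeR adjusted p under 0.05. At an unadjusted p under 0.05, 4 of the erythroid and 6 of the pericyte and smooth muscle genes were lower and 0 higher. DESeq2 placed 3 lower and 0 higher in each of these lists. In bulk tissue, fewer cells of a type and less RNA per cell cannot be told apart.

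Among the 30 genes, Lama1 and Lama2 rose in Dlx2OE and none fell at an adjusted p under 0.05 in the quasi-likelihood test of edgeR, adjusted by Benjamini-Hochberg over all genes tested. Over all genes, 2.99% passed in the higher direction and 3.46% in the lower, so 2 of 30 is not far from the background share. No member passed the study's own rule, which also asks for a log2 fold change above 1 or below -1 and which 3.12% of all genes met. At an unadjusted p under 0.05, 6 members were higher (Itga6, Itga7, Itga8, Itgae, Lama1 and Lama2) and 3 lower (Itgb1, Lama4 and Lamb3), against 14.1% and 15.4% of all genes. DESeq2 placed the same 2 laminin genes above and Itgb1 and Lamb3 below at an adjusted p under 0.05, against 6.0% and 7.82% of the genes it gave an adjusted p. In 7 members every Dlx2OE sample lay above every WT sample, which held for 16.7% of all genes, and in 2 members (Itgb1 and Itgb7) every Dlx2OE sample lay below, which held for 17.3%. The other 21 members overlapped between genotypes.

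By chain, 11 of the 13 integrin alpha genes had a positive log2 fold change, with a median of 0.35, although none of them passed the adjusted test. The 7 integrin beta genes were split 4 to 3, with a median of 0.02. The 5 laminin alpha genes were split 2 to 3, with a median of -0.15. In the laminin beta class 1 of 3 was positive, and both laminin gamma genes were. Over all 30 genes the median was 0.17, and 20 of the 30 were positive. Over all genes tested the median was 0.0028 and 50.3% were positive.

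**Figure D1:**
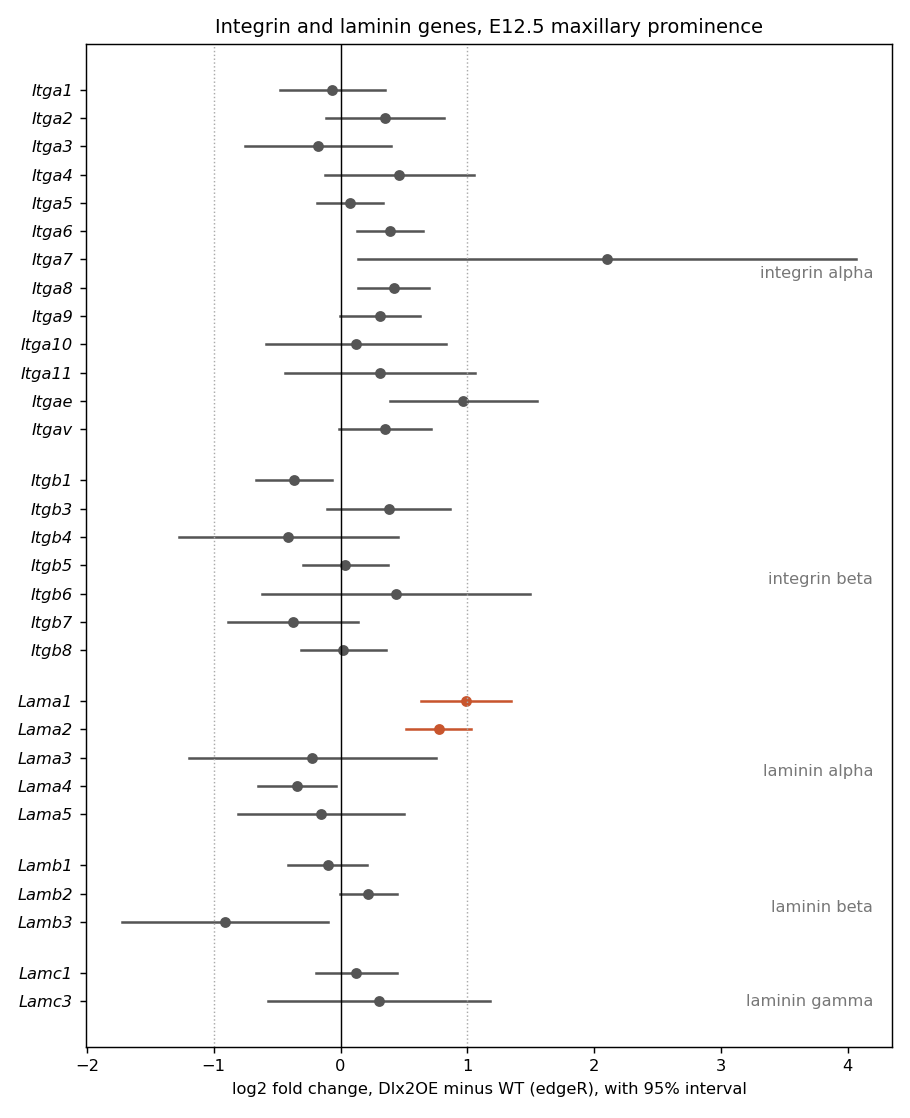
Log2 fold change of each of the 30 genes (x axis, Dlx2OE minus WT, edgeR, 3 samples per genotype) by chain class, with points for the estimates and bars for their 95% intervals. Lama1 and Lama2, in orange, passed an adjusted p under 0.05, Itga7 had the widest interval (0.14 to 4.06), and dotted lines mark log2 fold changes of -1 and 1.

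Lama1 encodes the alpha chain of the laminin that is laid down first in the early embryo and is later kept in few epithelial and neural basement membranes. It lies on chromosome 17 (67697259 to 67822647, plus strand, mm10; ENSMUSG00000032796). WT samples held 348, 436 and 512 counts and Dlx2OE samples 774, 869 and 844, which are 11.9, 14.5 and 16.4 CPM against 26.1, 27.7 and 31.2 CPM. The genotypes did not overlap, and the means were 14.3 ± 2.27 and 28.3 ± 2.58 CPM (SD, n = 3 each). On the log2 scale the estimate was 0.99 (SE 0.153, 95% interval 0.64 to 1.34), with an edgeR adjusted p of 0.0165, a value just short of the study's cut on fold. Leaving out a single sample ended the call in 3 of 6 fits by edgeR, with adjusted p values of 0.0540 without WT replicate 1, 0.0836 without WT replicate 2 and 0.0567 without Dlx2OE replicate 2.

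Lama2 encodes the alpha chain of the laminin that surrounds muscle fibres and Schwann cells and is also made by mesenchyme. It lies on chromosome 10 (26980036 to 27619758, minus strand, mm10; ENSMUSG00000019899), and 3.86% of its exonic bases are shared with another annotated gene. Counts of 683, 621 and 721 in WT stood against 1167, 1265 and 949 in Dlx2OE. In CPM these were 23.3, 20.6 and 23.1 against 39.4, 40.3 and 35.0, again with no overlap. The log2 fold change was 0.77 (SE 0.111, 95% interval 0.52 to 1.03), a 1.71-fold rise with an edgeR adjusted p of 0.0134. The same 3 samples ended the call when left out, with edgeR adjusted p values of 0.0508, 0.0772 and 0.0606 in the same order. Skeletal muscle markers, summed over 13 genes of which 12 were tested, came to 170, 307 and 184 CPM in WT and 90.9, 140 and 208 CPM in Dlx2OE, and Schwann cell and glial markers (11 genes, 10 tested) to 432, 380 and 388 CPM against 253, 427 and 576 CPM. Neither list had a gene past the adjusted test in edgeR, although 3 muscle genes were lower, 1 glial gene higher and 2 lower at an unadjusted p under 0.05, and DESeq2 placed 2 muscle genes and 1 glial gene lower. The muscle sum overlapped between genotypes, and the glial sum was highest in Dlx2OE replicate 3 and lowest in Dlx2OE replicate 1. Mesenchymal markers summed to 4505 to 4913 CPM in WT and 5189 to 5434 CPM in Dlx2OE, without overlap, and 3 of 14 (Twist1, Twist2 and Alx4) rose by edgeR at an adjusted p under 0.05, in 1, 4 and 3 of 6 fits with a sample left out. The part of these cell types in the Lama1 and Lama2 values was not tested.

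Dlx2 is a homeodomain factor, and proteins of the Dlx family are known to bind sites with the letters TAATT. The 300 bases around annotated start sites, 250 before and 50 after, were therefore read from RefSeq (GRCm38.p6) and searched for TAATT on both strands, which on the printed strand means TAATT or AATTA. Of the 30 genes, 20 had such a window, Lama1 not among them, and 6 of their 23 windows (26.1%) held the letters, against 27.0% of the 32851 windows of all genes. Lama2 is shown because it rose, and Lamb1, an abundant chain of the same trimers, as one that did not pass. Capitals mark the match.

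Lama2: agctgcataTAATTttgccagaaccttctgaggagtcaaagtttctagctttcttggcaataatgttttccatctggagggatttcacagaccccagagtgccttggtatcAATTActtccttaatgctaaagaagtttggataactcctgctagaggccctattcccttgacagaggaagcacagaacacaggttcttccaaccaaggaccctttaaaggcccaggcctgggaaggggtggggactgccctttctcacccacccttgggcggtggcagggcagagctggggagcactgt

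Lamb1: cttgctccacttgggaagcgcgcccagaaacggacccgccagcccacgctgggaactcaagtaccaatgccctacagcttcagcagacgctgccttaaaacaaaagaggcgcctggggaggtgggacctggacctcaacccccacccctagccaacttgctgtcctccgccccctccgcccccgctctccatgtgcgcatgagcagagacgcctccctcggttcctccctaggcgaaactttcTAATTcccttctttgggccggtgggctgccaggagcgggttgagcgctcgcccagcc

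The Lama2 window lies at chr10:27616893-27617192 on the minus strand and has matches at bases 10 to 14 and 112 to 116, counted from its 5′ end. It lies inside the gene span given above, whose outermost 5′ end is base 27619758, and so not at that end. The Lamb1 window lies at chr12:31265043-31265342 on the plus strand and has 1 match at bases 244 to 248, just before the start site. These letters occur at about the background share in the windows of the set, and nothing about binding was measured.

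The remaining laminin alpha genes did not pass in edgeR without a further correction. Lama5, the main alpha chain of epithelial and later of many adult basement membranes, had the highest level per length of its class at 14.6 ± 2.95 CPM per kilobase of exon in WT and 13.1 ± 5.40 in Dlx2OE. In CPM it stood at 129, 195 and 173 in WT and at 217, 96.5 and 134 in Dlx2OE. Dlx2OE replicate 1 was thus the highest of all 6 samples and Dlx2OE replicate 2 the lowest, and the log2 fold change of -0.15 had an interval of -0.81 to 0.50. Lama3, the alpha chain of the laminin that anchors epithelia, was likewise highest in Dlx2OE replicate 1 and lowest in replicate 2, with 18.5, 36.5 and 30.5 CPM in WT and 41.9, 13.3 and 18.0 CPM in Dlx2OE.

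Lama4, the alpha chain of vessel walls that mesenchyme also makes, stood at 140, 109 and 128 CPM in WT and 85.8, 99.8 and 110 CPM in Dlx2OE. The genotypes overlapped narrowly, and the log2 fold change was -0.35 (95% interval -0.65 to -0.04) with an edgeR adjusted p of 0.136. With a correction for gene length and GC content it passed, at -0.60 with an edgeR adjusted p of 0.0306, and at 0.0489 with a replicate block added. Endothelial markers summed to 569, 405 and 493 CPM in WT and 292, 441 and 393 CPM in Dlx2OE, with overlap between genotypes. Dlx2OE replicate 1 was lowest in both the sum and Lama4. Among the Dlx2OE samples, replicate 2 was highest in the sum and replicate 3 in Lama4. Of 13 endothelial genes 1 fell, the sialomucin gene Emcn, with a log2 fold change of -0.98 and an edgeR adjusted p of 0.0464 that held in 2 of 6 fits with a sample left out, while Pecam1 and Cdh5 had log2 fold changes of -0.45 and -0.31 that did not pass. Without adjustment, 4 of the 13 were lower and 0 higher at an edgeR p under 0.05, and DESeq2 placed 3 lower and 0 higher. Pericyte and smooth muscle markers, 6 of 9 tested lower at an unadjusted edgeR p under 0.05, overlapped in their sums. These were 362, 403 and 440 CPM in WT and 339, 378 and 442 CPM in Dlx2OE. The part of vessels or of pericytes and smooth muscle in the Lama4 values was not tested.

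**Figure D2:**
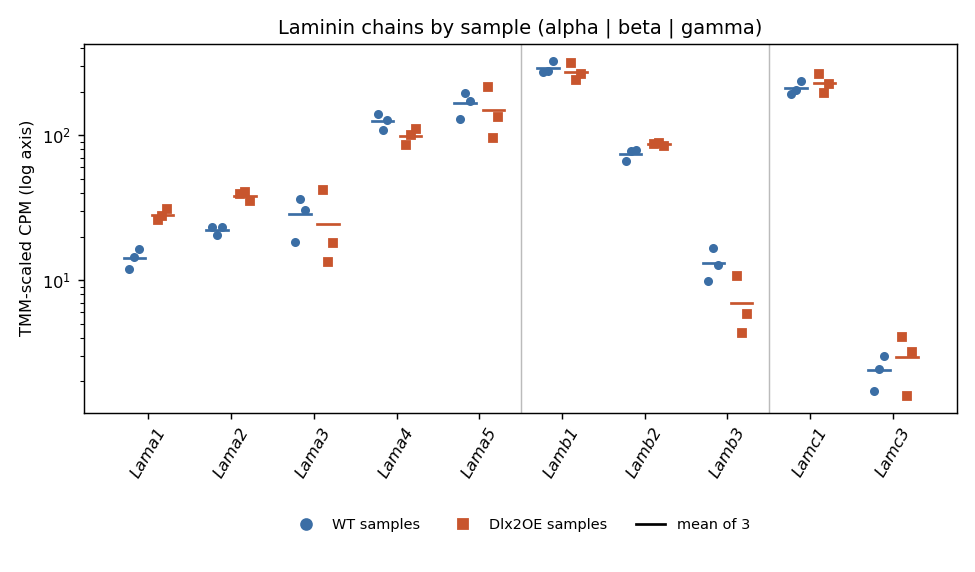
CPM of the 10 laminin chains (log axis) in each sample, with circles for WT, squares for Dlx2OE and a line at the mean of 3. Lama1 (14.3 against 28.3 CPM on average) and Lama2 (22.4 against 38.2 CPM) separate the genotypes upward, while Lama3, Lama5 and Lamb3 spread widely among the Dlx2OE samples.

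Lamb1 and Lamc1, which encode the beta and gamma chains of most laminins of the embryo, were the most abundant chains of their classes, and neither passed the test. Lamb1 stood at 273, 278 and 327 CPM in WT and 315, 240 and 264 CPM in Dlx2OE, the log2 fold change being -0.10 (95% interval -0.41 to 0.21). Lamc1 stood at 192, 204 and 236 CPM against 264, 197 and 228 CPM, with a log2 fold change of 0.12 (95% interval -0.20 to 0.44). Both intervals exclude a change of 1 log2 unit in either direction. Lamb2, the beta chain of neuromuscular, vascular and kidney basement membranes, stood at 67.0, 77.3 and 78.8 CPM in WT and 87.7, 88.0 and 84.1 CPM in Dlx2OE, without overlap, and the estimate of 0.22 on the log2 scale missed the threshold (edgeR adjusted p = 0.172). Lamc3 was scarce, at 1.59 to 4.08 CPM in all samples.

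Lamb3 encodes the beta chain that joins the Lama3 product in the laminin under stratified epithelia. At 9.81, 16.6 and 12.8 CPM in WT and 10.8, 4.30 and 5.80 CPM in Dlx2OE, it overlapped between genotypes through Dlx2OE replicate 1. The log2 fold change was -0.91 (SE 0.351, 95% interval -1.72 to -0.10), with adjusted p values of 0.135 in edgeR and 0.0385 in DESeq2. Without Dlx2OE replicate 1 it passed in edgeR, with an adjusted p of 0.0223.

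The epithelial markers did not move as 1 block. Summed over 14 genes of surface and oral epithelium they came to 892, 1585 and 1183 CPM in WT and to 2073, 673 and 688 CPM in Dlx2OE. Dlx2OE replicate 1 was highest, and so were its keratins Krt5 (538 CPM against 42.7 to 91.7 CPM in WT) and Krt14 (490 CPM against 129 to 254 CPM). The epithelial adhesion gene Epcam, in contrast, stood at 109, 205 and 145 CPM in WT and 118, 52.6 and 44.4 CPM in Dlx2OE. Of the 14 genes 2 fell, the simple-epithelium keratins Krt8 and Krt18, with log2 fold changes of -2.11 and -1.85 and edgeR adjusted p values of 0.00939 and 0.0233, which held in 6 and 3 of 6 fits with a sample left out. Without adjustment, 1 of the 14 was higher and 5 lower at an edgeR p under 0.05, and DESeq2 placed 0 higher and 3 lower.

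How far the epithelial laminin chains differed therefore rested on the marker they were set against. As a share of the whole marker sum, Lamb3 was 0.619 times its WT value, without overlap. With the keratins left out of the sum this was 0.772, again without overlap. Against Epcam alone it was 1.17 times its WT value, and the genotypes overlapped. Lama3 gave 0.951, 1.20 and 1.81 against the same 3 measures, and only the last separated the genotypes. Itgb6, a subunit that epithelia induce and whose receptor activates TGF-beta, stood at 1.02, 2.32 and 2.31 CPM in WT and 4.19, 1.75 and 1.74 CPM in Dlx2OE. Per marker it was 1.56, 1.95 and 2.94 times its WT value, without overlap under any of the 3 measures. Against the same measures Itgb4 gave 0.868, 1.09 and 1.66, with overlap in each. Itga3 gave 1.05, 1.30 and 1.96, and only the last separated the genotypes. Lama5 gave 1.07, 1.33 and 2.01, and only the first overlapped. These ratios were chosen after the sample pattern had been seen, and they carry no test. The part of the amount of epithelium in the levels of these chains was not tested.

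**Figure D3:**
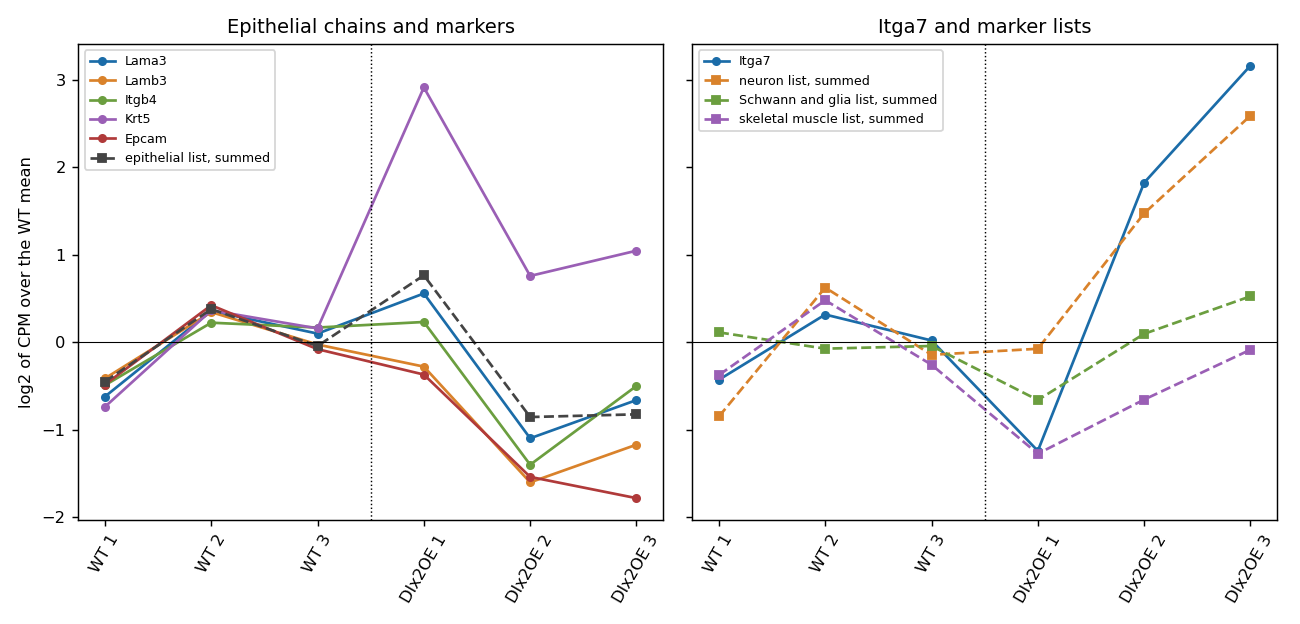
Log2 of CPM over the WT mean (y axis) in each of the 6 samples (x axis) for epithelial chains with epithelial markers (left) and for Itga7 with summed marker lists (right). Lines only guide the eye between samples, which have no order. Lamb3 and Itgb4 lie lowest where Epcam is low, in Dlx2OE replicates 2 and 3, while Krt5 lies above its WT mean in all 3 Dlx2OE samples, and Itga7 reaches 5.38 and 13.6 CPM in the samples with the largest neuronal sums.

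The make-up of the laminin alpha, laminin beta and both integrin classes was read within samples, as the share of the class's reads per kilobase, which no scaling between samples can alter. Lama1 supplied 4.49, 4.63 and 5.35% of laminin alpha RNA in WT and 7.68, 12.3 and 11.5% in Dlx2OE. Lama2 supplied 4.53% on average in WT and 8.37% in Dlx2OE. Lama5 and Lama4 together still formed most of the class in every sample. In the beta class Lamb2 went from 28.0 ± 1.22% to 33.5 ± 3.31% and Lamb3 from 4.52 ± 1.12% to 2.39 ± 0.908%.

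Of 28 shares tested, 11 did not overlap between genotypes, and each of these had p = 0.1, the smallest that a two-sided exact permutation test of 3 against 3 samples can give. The lowest adjusted value was 0.255, and with this number of samples no share could have passed 0.05. For comparison, the CPM of 16.7% of all genes tested lay higher in Dlx2OE without overlap and that of 17.3% lower. Shares of a class add up to the whole, so a fall in some genes raises others, and the 11 are not separate results. Besides Lama1, Lama2, Lamb2 and Lamb3, the 11 comprised Itgb1, Itgb5 and Itgb3 in the integrin beta class and Itga1, Itga5, Itga6 and Itgae in the integrin alpha class. Per-length totals of the classes overlapped between genotypes for the laminin alpha, laminin beta and integrin alpha genes. Only the integrin beta total did not, at 234, 213 and 213 CPM per kilobase in WT and 205, 184 and 170 in Dlx2OE. That total rests mostly on 1 gene, since Itgb1 supplied 70.1% of the class on average in WT and 64.5% in Dlx2OE.

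**Figure D4:**
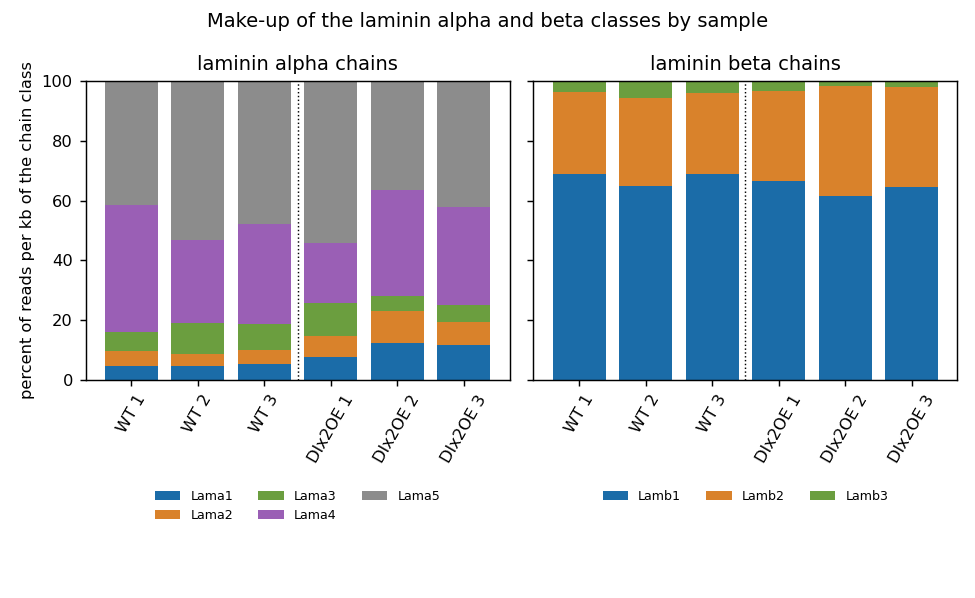
Percent of the reads per kilobase of the laminin alpha and beta classes (y axis) supplied by each gene in each sample, WT left and Dlx2OE right of the dotted line. Lama1 averages 4.82% in WT and 10.5% in Dlx2OE, and Lamb2 28.0% and 33.5%.

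Among the integrins, Itgb1 exceeded every other subunit. It stood at 714, 595 and 584 CPM in WT and 512, 495 and 460 CPM in Dlx2OE. Every Dlx2OE sample lay below every WT sample, and the log2 fold change was -0.37 (SE 0.129, 95% interval -0.67 to -0.07). It did not pass in edgeR (adjusted p = 0.111) and passed narrowly in DESeq2 (adjusted p = 0.0497). With the length and GC correction it passed in edgeR, at -0.62 on the log2 scale with an adjusted p of 0.0456, and at 0.0439 with a replicate block added. Itgb5, a partner of Itgav for vitronectin and related ligands, was the next most abundant beta subunit per length, with 56.4 ± 4.33 CPM per kilobase in WT against 155 ± 17.6 for Itgb1. In CPM it stood at 183, 205 and 213 in WT and 248, 196 and 174 in Dlx2OE, the log2 fold change being 0.04 (95% interval -0.30 to 0.38). Within the beta class the share of Itgb1 went from 70.1% to 64.5% and that of Itgb5 from 25.7 ± 3.28% to 31.0 ± 2.73%.

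The other beta subunits were much scarcer per length. Itgb4, which builds the hemidesmosome of epithelia with Itga6, had 4.63 ± 1.17 CPM per kilobase in WT, followed by Itgb3 and Itgb8 at 1.76 ± 0.259 and 1.72 ± 0.225, which did not differ beyond their spread, and by Itgb7 and Itgb6 at 0.801 and 0.265. In Dlx2OE, Itgb4 stood at 38.1, 12.3 and 23.0 CPM against 23.1, 37.9 and 36.5 CPM in WT, highest and lowest in the same samples as Lama5. Itgb7, a lymphocyte subunit, lay lower in every Dlx2OE sample (1.62 to 1.76 against 2.18 to 2.26 CPM) but the estimate of -0.37 on the log2 scale missed the threshold (edgeR adjusted p = 0.290). Macrophage markers, of which 3 of 11 fell at an edgeR adjusted p under 0.05, summed to 106 to 124 CPM in WT and 69.5 to 78.7 CPM in Dlx2OE. At an unadjusted p under 0.05, 7 of the 11 were lower and 0 higher, and DESeq2 placed 6 lower and 0 higher. The part of macrophages in the Itgb7 values was not tested.

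Of the alpha subunits, Itga5, the fibronectin receptor chain, had the highest level per kilobase of exon, at 15.3 ± 2.07 CPM in WT and 16.1 ± 0.594 in Dlx2OE. It was followed in WT by Itga3 (9.94 ± 1.12), Itga6 (9.85 ± 0.865), Itgav (7.89 ± 1.56) and Itga9 (7.29 ± 1.35), of which neighbours did not differ beyond their spread. The order depends on the length used: divided by the longest coding transcript in place of all exons, Itga6 led over all 6 samples at 24.7 CPM per kilobase, against 17.6 for Itga5. In the laminin alpha class Lama4 then led Lama5 at 18.5 against 13.8. Itga5 stood at 71.2, 67.7 and 86.9 CPM in WT and 80.4, 76.0 and 81.6 CPM in Dlx2OE, and its log2 fold change of 0.08 (95% interval -0.19 to 0.34) excludes a change of 1 log2 unit.

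The laminin-binding alpha subunits are Itga3, Itga6 and Itga7. Itga6 stood at 91.2, 80.2 and 95.2 CPM in WT and 130, 110 and 110 CPM in Dlx2OE, without overlap. Its log2 fold change was 0.39 (95% interval 0.13 to 0.65) with an edgeR adjusted p of 0.0722. Itga3 was highest and lowest in the same samples as Lama5 and Lama3, with 49.4, 59.6 and 61.2 CPM in WT and 70.3, 32.4 and 47.8 CPM in Dlx2OE. In Dlx2OE replicates 2 and 3, Itga3 and Epcam lay below every WT sample and Itga6 lay above every WT sample. The part of the amount of epithelium in the Itga3 and Itga6 values was not tested.

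Itga7, best known from muscle and also found in nerves, was the scarcest alpha subunit per length in WT and the most variable in Dlx2OE. WT samples held 33, 57 and 48 counts and Dlx2OE samples 19, 169 and 369, so that Dlx2OE held both the lowest and the highest sample. The log2 fold change of 2.10 had an interval of 0.14 to 4.06 and an edgeR adjusted p of 0.148, and without Dlx2OE replicate 1 the adjusted p was 0.0115. The muscle sum had the order of Itga7 among the Dlx2OE samples, at 90.9, 140 and 208 CPM, and was 170, 307 and 184 CPM in WT. The summed level of 14 neuronal markers was 183, 508 and 298 CPM in WT and 313, 916 and 1987 CPM in Dlx2OE, highest in the same 2 samples as Itga7. None of the 14 passed in edgeR at an adjusted p under 0.05, while 5 were higher at an unadjusted p under 0.05 and 3 in DESeq2. The glial precursor gene Fabp7 stood at 13.9, 19.3 and 9.04 CPM in WT and 4.56, 56.4 and 128 CPM in Dlx2OE, the order of Itga7 among the Dlx2OE samples. Dlx2OE replicate 3, the highest, was also the sample with 15.41% of reads outside genes. The part of nerve tissue, of muscle or of this sample in the Itga7 values was not tested.

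The collagen-binding subunits Itga1, Itga2, Itga10 and Itga11 lay between 0.432 and 1.84 CPM per kilobase in WT, and their log2 fold changes ran from -0.06 (Itga1) to 0.35 (Itga2), none past the test. Itga1 and Itga2 are neighbours on chromosome 13, 20995 bp apart. The value of Itga10 is uncertain, because 33.5% of its exonic bases overlap another annotated gene and the strand setting of the counting is not given. Reads there could have been left out as ambiguous.

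Itga4, Itga8, Itga9 and Itgav bind fibronectin, vitronectin, nephronectin, tenascins and related ligands. Itga8, the nephronectin receptor of mesenchyme, stood at 39.4, 33.5 and 34.7 CPM in WT and 51.9, 50.4 and 41.7 CPM in Dlx2OE, without overlap, the log2 fold change being 0.42 (95% interval 0.14 to 0.70) at an edgeR adjusted p of 0.0729. Itga9, which binds tenascin and osteopontin, stood at 55.4, 46.1 and 66.8 CPM against 68.5, 71.0 and 69.2 CPM, and its log2 fold change of 0.31 had an edgeR adjusted p of 0.172. Itgav had a log2 fold change of 0.35 and Itga4 one of 0.46, both with overlapping genotypes. The genotypes of Itgae, the alpha partner of Itgb7 on intraepithelial lymphocytes, stood apart at 1.30, 1.29 and 1.25 CPM in WT and 2.13, 2.39 and 3.03 CPM in Dlx2OE. Its log2 fold change of 0.97 (95% interval 0.39 to 1.55) came closest to the threshold of the members that missed it, with an edgeR adjusted p of 0.0574, and its partner Itgb7 had the opposite sign.

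**Figure D5:**
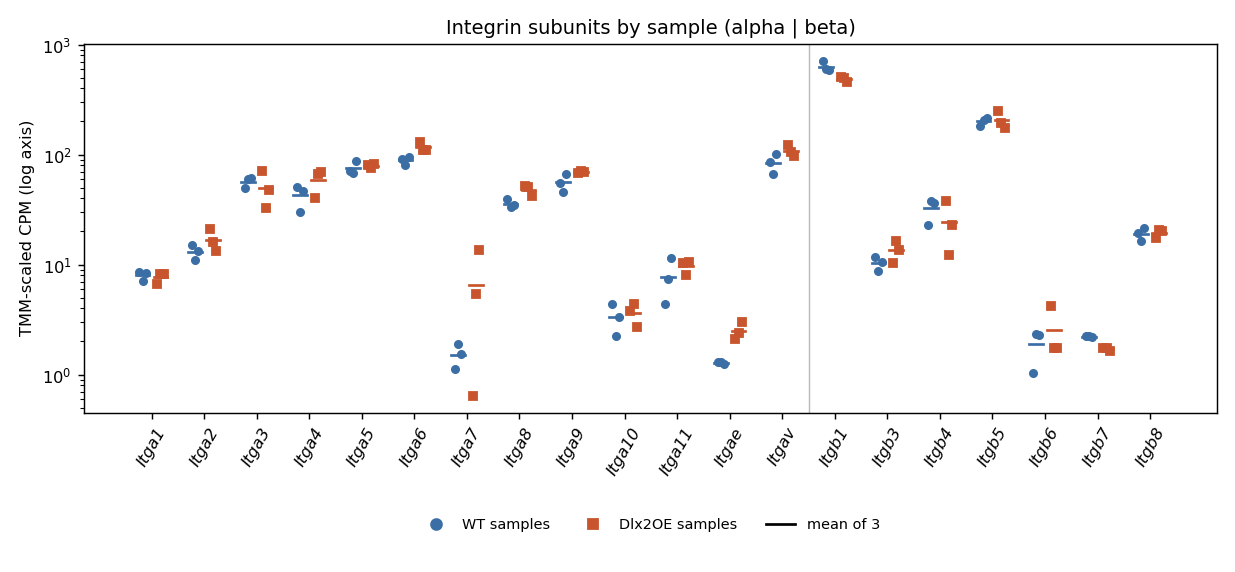
CPM of the 20 integrin genes (log axis) in each sample, with circles for WT, squares for Dlx2OE and a line at the mean of 3. Itgb1 is the most abundant (631 CPM on average in WT, 489 CPM in Dlx2OE), Itga7 spans 0.641 to 13.6 CPM in Dlx2OE, and Itgae averages 1.28 CPM in WT and 2.51 CPM in Dlx2OE without passing the adjusted test.

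The partners of these genes were followed in lists drawn up by function. None of 22 tested basement membrane partners passed in edgeR at an adjusted p under 0.05, with a list median log2 fold change of 0.06, although 1 was higher and 2 lower at an unadjusted p under 0.05 and DESeq2 placed 1 in each direction. The smallest p values were those of the collagen-binding matrix protein gene Sparc (log2 fold change -0.40) and the laminin-binding netrin Ntn4 (1.01). Among 20 non-integrin laminin receptors and their glycosylation enzymes 1 fell, the syndecan gene Sdc2, with 145, 120 and 120 CPM in WT and 94.4, 84.9 and 84.1 CPM in Dlx2OE and an edgeR adjusted p of 0.0333. At an unadjusted p under 0.05, 4 of the 20 were higher and 4 lower, and DESeq2 placed 0 higher and 3 lower. None of 4 hemidesmosome genes passed in edgeR, while 3 were higher and 1 lower at an unadjusted p under 0.05 and DESeq2 placed 1 in each direction. The smallest p values were those of the linker Dst (log2 fold change 0.61) and the tetraspanin Cd151 (-0.46).

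The interstitial ligands of integrins include fibronectin, periostin, tenascins and latent TGF-beta. Of 21 tested, 2 rose and 3 fell by edgeR at an adjusted p under 0.05, with a list median log2 fold change of -0.33. Postn, encoding the matrix protein periostin, stood at 803, 1206 and 785 CPM in WT and 365, 369 and 355 CPM in Dlx2OE, a change of -1.36 on the log2 scale. The TGF-beta genes Tgfb2 and Tgfb3 fell by 0.61 and 0.79 on the log2 scale. Thbs1, encoding thrombospondin, rose by 0.90 and the tenascin gene Tnn by 2.56. At an unadjusted p under 0.05, 3 of the 21 were higher and 8 lower, and DESeq2 placed 2 higher and 5 lower. In the adhesion complex behind the integrins 1 of 33 tested genes rose, the talin gene Tln2, with 74.5, 73.5 and 88.7 CPM in WT and 121, 109 and 121 CPM in Dlx2OE and an edgeR adjusted p of 0.0280. At an unadjusted p under 0.05, 9 of the 33 were higher and 3 lower, and DESeq2 placed 2 in each direction.

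Of 6 tested genes that resemble these chains but fall outside the naming rule, 1 rose and 1 fell. Itgbl1, which has integrin-like repeats and no membrane anchor, stood at 3.79, 6.11 and 5.20 CPM in WT and 0.776, 0.796 and 1.03 CPM in Dlx2OE. Its log2 fold change of -2.53 had an edgeR adjusted p of 0.00762. Ntng2, a membrane-bound netrin with laminin-type domains, stood at 0.957, 0.830 and 1.06 CPM in WT and 6.78, 2.99 and 7.38 CPM in Dlx2OE, a change of 2.59 on the log2 scale. Both estimates exceeded in size those of all 30 members. Among the partner genes called, all but Itgbl1 lost the call in at least 1 fit: of the 6 edgeR fits with a sample left out, Itgbl1 passed in 6, Postn in 5, Ntng2 in 4, Tgfb3 in 3, and Sdc2, Tln2, Thbs1, Tnn and Tgfb2 in 2.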

How the data were processed

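RNA from 3 WT and 3 Dlx2OE samples of maxillary prominence was sequenced as 150 bp paired-end reads on a kit that does not mark strand. The authors removed adaptors and low-quality reads, mapped to mm10 with STAR 2.7.3a and counted with htseq-count 0.12.4 in union mode, and the deposited counts are whole read pairs per gene, not normalized. The annotation release and the strand setting of the counting are not given in the sources used here. Summary lines of unassigned pairs were left out of library sizes. Of 53801 gene rows, 53706 matched GENCODE M21, which gave symbols, exon lengths and positions.

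Genes were tested in R 4.3.3 with edgeR 4.0.16 (TMM scaling, filterByExpr with a minimum count of 10, quasi-likelihood F test, Benjamini-Hochberg adjustment over 17514 genes). DESeq2 1.42.0, other scalings and filters, a replicate block, a length and GC correction and the omission of each sample were alternatives. CPM are TMM-scaled, and levels per kilobase divide them by the union of exons. Shares were compared by two-sided exact permutation tests. Figures were drawn with matplotlib 3.10.9. Genes described in full were those past the adjusted test and the highest per length of each class, and all others are given by values or ranges. A gene that meets the naming rule is not reported here. The genes and lists were chosen with earlier results of these data known. The labels call the 3 RNA samples per genotype independent, so p-values measure the spread between these samples.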

Additional observations from a re-analysis of the deposited data

Results flagged for a closer look

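The share of uniquely mapped read pairs that lay outside annotated genes, which no comparison above used, was higher in the Dlx2OE samples than in any WT sample. It was 6.03% in Dlx2OE replicate 1, 8.21% in replicate 2 and 15.41% in replicate 3, against 5.34 to 5.79% in WT. Among the members, Itga7 had the same order over the Dlx2OE samples, with 0.641, 5.38 and 13.6 CPM. Others shared this order, Lama1 among them, with 26.1, 27.7 and 31.2 CPM, and Lama2 did not, with 39.4, 40.3 and 35.0 CPM. The part of this read share in the results was not tested.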

How the results depend on the processing

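Lama1 and Lama2 were called in all 8 alternatives that kept every sample and in 3 of the 6 that left out a sample each. The count of all genes called, 1130, became 2478 with DESeq2 and 2044 without a filter, and ran from 79 to 2091 with a sample left out. Members called higher, 2, became 4 with the length and GC correction (Itga8 and Itgae added) and ran from 0 to 4 with a sample left out. Members called lower, 0, became 2 with DESeq2, 2 with the length and GC correction and 2 with the replicate block and that correction (Itgb1 and Lama4 in both), and ran from 0 to 1. Members past the study's rule, 0, became 1 with library size alone and 1 with the length and GC correction, and ran from 0 to 4, the last without Dlx2OE replicate 1. The cause was not tested. Same-numbered samples did not deviate together (correlations of -0.07, -0.21 and 0.07). No pairing by number was seen, although 3 samples per genotype are too few to exclude one. A replicate block gave 961 calls over all genes, 2 members higher and 0 lower, and changed no member's call. Signs turned for Itga1 with library size alone (log2 fold change 0.0055), for Itgb8 without a filter (-0.0009), and with the length and GC correction, without and with the block, for Lama5 (0.24 and 0.19) and Lamb1 (0.091 and 0.095). With a sample left out, log2 fold changes ran from -0.15 to 0.024 for Itga1, -0.51 to 0.057 for Itga3, -0.0020 to 0.18 for Itga5, -0.10 to 0.37 for Itga10, -0.13 to 0.15 for Itgb5, -0.12 to 0.65 for Itgb6, -0.081 to 0.10 for Itgb8, -0.88 to 0.072 for Lama3, -0.53 to 0.082 for Lama5 and -0.015 to 0.61 for Lamc3. The other 19 members kept their sign under all 14 alternatives. Library size alone moved the median of all genes from 0.0028 to 0.07. With 3 samples per genotype, changes such as that of Lamb3 (95% interval -1.72 to -0.10) are bounded only loosely.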
